A study of Mus musculus with 6 samples.

Results

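Contacts shared by both B-lineage stages of the mouse immunoglobulin heavy chain (Igh) locus were sought by setting 4 B-lineage libraries against 2 libraries of mouse embryonic fibroblasts (MEF). The members were all 12656 pairs of 1 forward and 1 reverse primer in the Igh locus, of 18768 forward-reverse pairs in the whole design. A contact counted as shared where all 4 B-lineage libraries lay above both MEF libraries, or all 4 below, after scaling for depth. The assay was chromosome conformation capture carbon copy (5C), in which a read pair records ligation of one HindIII restriction fragment to another and so a contact in the nucleus. The B-lineage groups were Rag2 deficient pro-B cells and resting B cells, with 2 biological replicates of each cell type per the series description. The pro-B cells came from bone marrow and had been expanded in IL7 for 4 days. The resting B cells were CD43- and were taken directly from the spleen with magnetic beads. The MEF were used directly from culture. Strain, age and the number of animals per library were not given in the sources used here. Cell type and culture history cannot be told apart, and both stages were set against the same 2 MEF libraries. In resting B cells, rearrangement of the locus cannot be told apart from cell type either.

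The Igh locus is read from a large array of variable (V) segments through diversity (D) and joining (J) segments to the constant region genes. V(D)J recombination joins one V, D and J segment, and a long-range contraction of the locus in B-cell progenitors is known to bring distant V segments near the D and J segments. In RefSeq's GRCm38.p6 annotation the order on the chromosome is Tmem121, a gene of the flank, then Igha, Ighe, Ighg2c, Ighg2b, Ighg1, Ighg3, Ighd, Ighm and the J segments. The intronic enhancer lies between the J segments and Ighm, and the 3′ regulatory region, a cluster of enhancers and CTCF binding sites, lies beyond Igha. Rag2 is needed for recombination, so deficient pro-B cells hold unrearranged alleles, whereas a mature B cell has deleted the DNA between its joined segments. Separations are given between positions of the reference genome and do not account for that deletion. The part of rearrangement in the levels of resting B cells was not tested. Fibroblasts do not express the locus.

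The libraries held 20580457 to 24191175 valid pairs, and Igh took 91.3% to 93.4% of them. Pro-B replicate 2 stood apart, with 1641 Igh primer pairs at 0 reads against 376 to 622 in the other libraries. The log2 levels of replicates correlated at 0.781 for pro-B, 0.932 for MEF and 0.951 for resting B cells, over primer pairs that are not independent of each other. Levels are given as CPM, the usual depth-scaled read count, and differences as log2 of B lineage over MEF with the standard error (SE), where B lineage is the mean of both stages. Regions are runs of fragments with approximate edges, so a fragment at an edge can hold part of the next region, and no gene was assigned to a fragment. No cell identity marker can be read from 5C, so the labelled cell types were not checked against markers.

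Of the 11940 primer pairs with enough reads to test, 786 (6.58%) had all 4 B-lineage libraries above both MEF libraries, and 862 (7.22%) had all 4 below. The median log2 difference was 1.68 over the pairs above and -1.41 over the pairs below, which the choice of these pairs fixes in sign. Set against MEF alone, pro-B cells had both libraries above both MEF libraries in 2304 pairs and below in 2717, and resting B cells in 4052 and 4291. The stages lay on opposite sides of MEF more often than on the same side above it: pro-B cells were above and resting B cells below in 1053 pairs, and the reverse held in 950. In edgeR's quasi-likelihood test with Benjamini-Hochberg adjustment 0 of the 11940 pairs (0%) passed the threshold of 0.05. In that test 1128 had an unadjusted p under 0.05, 585 higher and 543 lower. DESeq2's Wald test called 280 higher and 70 lower, of which 249 and 19 had all 4 libraries on one side. Leaving out pro-B replicate 1, edgeR called 977 higher and 2396 lower, and leaving out pro-B replicate 2, 279 and 85. The counts on one side were 1781 and 2017 without pro-B replicate 1, 1399 and 1316 when pro-B replicate 2 was left out, 1517 and 1623 for MEF replicate 1, and 1331 and 1786 for MEF replicate 2.

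The gene desert on chromosome 5, a control region in the same libraries, had all 4 B-lineage libraries above MEF in 6 of 220 tested pairs (2.73%) and below in 54 (24.5%). The share below in the desert was thus larger than that in Igh, and its median log2 difference was -0.75 against -0.16 over all Igh pairs. Scaling to the desert's own reads moved the Igh median to 0.12 and left 718 Igh pairs above and 385 below. The low side therefore depended on the scaling more than the high side did. The stages differed from each other past the threshold in 943 Igh pairs (7.9%; edgeR quasi-likelihood, Benjamini-Hochberg). Among the pairs with all 4 libraries above MEF 21 did so (2.67%), and among those below 6 did so (0.696%). Choosing pairs with both stages on one side of MEF itself limits how far the stages can differ. These lower shares therefore do not show that the stages agree.

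The shared contacts fell unevenly over the locus. On the constant side, which runs from the 3′ flank to the D-J region, 222 of 958 pairs (23.2%) lay above MEF in all 4 libraries and 50 (5.22%) below. Constant-side fragments 50 to 500 kb apart had 193 of 697 above (27.7%). Contacts of the constant side with V fragments lay above in 424 of 4141 (10.2%) and below in 183 (4.42%), and those over 1 Mb apart above in 310 of 2784 (11.1%). Pairs of V fragments showed the opposite split, with 73 of 4630 above (1.58%) and 500 below (10.8%). The median log2 differences were 0.73 within the constant side, 0.26 between it and the V array and -0.54 within the V array. They kept these signs under total-read, gene desert and DESeq2 scaling and with the distance trend removed. The constant side was not uniform toward the V regions. The 3′ flank lay above in 19.0% to 29.7% of pairs with each, and the 3′ regulatory region in 10.2% to 23.0%. The constant region did so in 2.08% to 5.33% and the D-J region in 0.82% to 8.91%. D-J medians were -0.63 to -0.08. Constant region medians were -0.24 and -0.18 with proximal and middle V, but 0.17 and 0.07 with near and far distal V fragments.

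**Figure D1:**
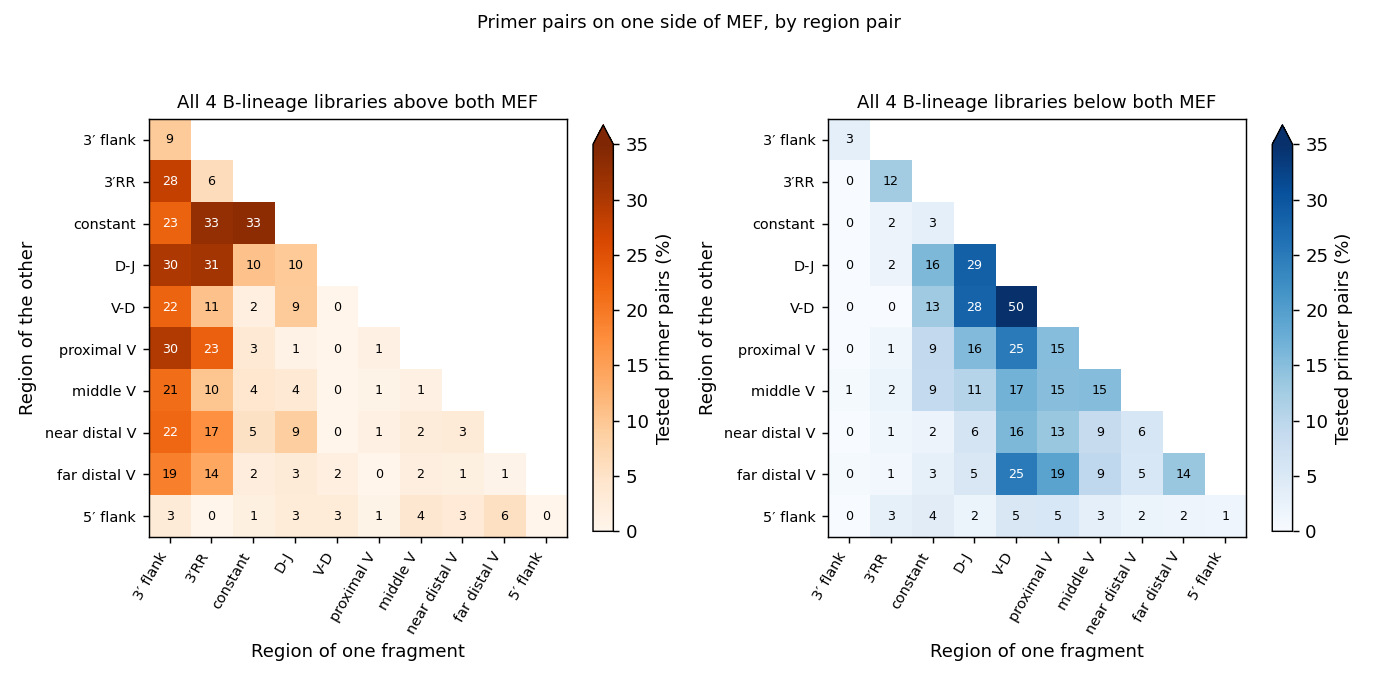
Share of tested primer pairs (%, printed in each cell) with all 4 B-lineage libraries above both MEF libraries (left) or below both (right), for each pair of the 10 regions. High shares on the left lie in the columns of the 3′ flank and the 3′ regulatory region (3′RR) and within the constant region (33.3%), and high shares on the right lie in cells with the D-J and V-D regions and among the V regions.

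Among the 55 pairs of regions, the constant region with itself had the largest share above, 52 of 156 primer pairs (33.3%), followed by the 3′ regulatory region with the constant region (32 of 98, 32.7%) and with the D-J region (16 of 52, 30.8%). The 3′ flank, the DNA beyond the 3′ regulatory region, was above with the D-J region in 31 of 104 pairs (29.8%) and with the proximal V fragments in 43 of 145 (29.7%). Every one of these shares exceeded the 6.58% over all Igh pairs. Within the D-J region 12 of 42 pairs lay below (28.6%) and 4 above (9.52%), and with the V-D intergenic region 9 of 32 lay below (28.1%). The 3′ flank had 0 pairs below with the 3′ regulatory, constant, D-J, V-D, proximal V and near distal V regions.

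Summed reads of the 3′ regulatory region with the D-J region as drawn gave the clearest difference that both stages shared. The region is covered by 8 fragments at positions 114434637 to 114480873 of chromosome 12 (mm9), and the D-J region as drawn by 13 fragments at 114656273 to 114691293. Of these 13, 5 (114656273 to 114664823) lie on the Ighm side of the intronic enhancer fragment REV 81. The other 7 (114667096 to 114691293) lie beyond it toward the V array. In the order given above, the D and J segments lie beyond the enhancer, so for the first 5 D-J region is only a name. By value the shared rise was largest with those 5, as given below. The sums were 4624 and 3282 CPM in pro-B replicates 1 and 2, 3328 and 4111 CPM in resting B replicates 1 and 2, and 856 and 751 CPM in MEF replicates 1 and 2. All 4 B-lineage libraries lay far above MEF. The stages overlapped each other in the whole sum, but not in its parts at and beyond the enhancer fragment, given below. The contact rose by 2.26 ± 0.26 on the log2 scale (SE; 4 against 2 libraries; edgeR quasi-likelihood, Benjamini-Hochberg, adjusted p = 0.000564). With every primer pair counted once on a log scale, as a mean of log2(CPM + 0.5), the levels were 3.84 and 3.64 for pro-B, 3.73 and 3.80 for resting B cells and 2.83 and 2.84 in MEF. That difference was 0.92 ± 0.11 (limma, adjusted p = 0.00164), smaller than in the sums. Resting B minus pro-B cells was 0.03, with a 95% interval of -0.27 to 0.33. The most read primer pair held 16.6% of the sum, and without it the difference was 2.04. It passed in sums under every alternative run, between 2.12 and 2.37 without any 1 library and at 1.67 without the fragment REV 27.

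By value that difference was larger at the enhancer and on its Ighm side than beyond it, and the parts were not tested against each other. The D-J region was split at REV 81 after the data had been seen, and the fit then held 57 region pairs. With the 5 fragments on the Ighm side the 3′ regulatory region had 2058 and 1474 CPM in pro-B, 1665 and 1763 in resting B and 134 and 157 in MEF libraries, a rise of 3.58 ± 0.29 (edgeR quasi-likelihood, adjusted p = 2.38e-05). There 10 of 20 primer pairs lay above MEF in all 4 libraries, with a median of 1.82. With the enhancer fragment itself 3 of 4 did so, and the sum rose by 2.56 ± 0.37. That sum was 633 and 363 CPM in pro-B, 1034 and 1623 in resting B and 161 and 114 in MEF libraries. Against MEF it was 1.86 higher in pro-B and 3.27 higher in resting B cells. With the 7 fragments beyond the enhancer fragment 3 of 28 lay above and 1 below, with a median of 0.05. Their sum was 1933 and 1444 CPM in pro-B, 628 and 725 in resting B and 560 and 480 in MEF libraries, a rise of 1.04 ± 0.25 (adjusted p = 0.0121) in which resting B cells lay close to MEF.

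In sums, 12 of the 55 region pairs rose (21.8%), each with all 4 B-lineage libraries above both MEF libraries, and 0 fell, with 3 lower at an unadjusted p under 0.05 (edgeR quasi-likelihood; limma's count in mean logs follows). All 12 joined the 3′ regulatory region or the 3′ flank to another region. Set against MEF by themselves, resting B cells passed in each of the 12 (edgeR quasi-likelihood, Benjamini-Hochberg). Pro-B cells passed for the 3′ regulatory region with the D-J, constant and proximal V regions. They also passed for the 3′ flank with the D-J and proximal V regions, but not in the rest. The 3′ regulatory region rose with the constant region by 1.55 ± 0.30, from 7726 and 6748 CPM in MEF to 29121 and 15959 (pro-B) and 19480 and 20118 (resting B). One primer pair 18.9 kb apart, FOR 28 with REV 33, held 55.3% of those reads in pro-B replicate 1 and 11.0% to 14.3% in the other libraries. The 3′ regulatory region also rose with the proximal V (1.21 ± 0.26) and the far distal V fragments (1.12 ± 0.27). With each primer pair counted once, its contacts with the near and far distal V fragments rose by 0.54 ± 0.13 and 0.46 ± 0.14 (limma, adjusted p = 0.0104 and 0.0296). The stage differences there were 0.09 (95% interval -0.27 to 0.45) and 0.06 (-0.32 to 0.44). Both were lost under total-read and gene desert scaling, at 0.53 to 0.80. The sum with the near distal V fragments was mostly 1 primer pair, FOR 31 with REV 545, 1869 kb apart, which held 83.2% of its reads. That pair had 24916 and 70364 CPM in resting B, 1269 and 7191 in pro-B and 5659 and 1528 in MEF libraries, so pro-B cells overlapped MEF and the resting B replicates differed widely. Counted that way, its contacts with the proximal V fragments were 4.03 and 3.79 in pro-B cells but 3.04 in both resting B libraries, against 2.83 and 3.04 in MEF, so resting B cells overlapped MEF. Without MEF replicate 1 the contact with the D-J region alone remained among the 12, and without MEF replicate 2 those of the D-J region with the 3′ regulatory region and the 3′ flank and of the 3′ flank with the constant region remained. Total-read scaling left 7 of the 12 past the threshold, without those of the 3′ regulatory region with the proximal and far distal V fragments and of the 3′ flank with the 3′ regulatory, V-D and middle V regions. Scaling to gene desert reads left 2, the 3′ regulatory region with the D-J and constant regions. Without pro-B replicate 1 all 12 remained among 23 that rose.

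**Figure D2:**
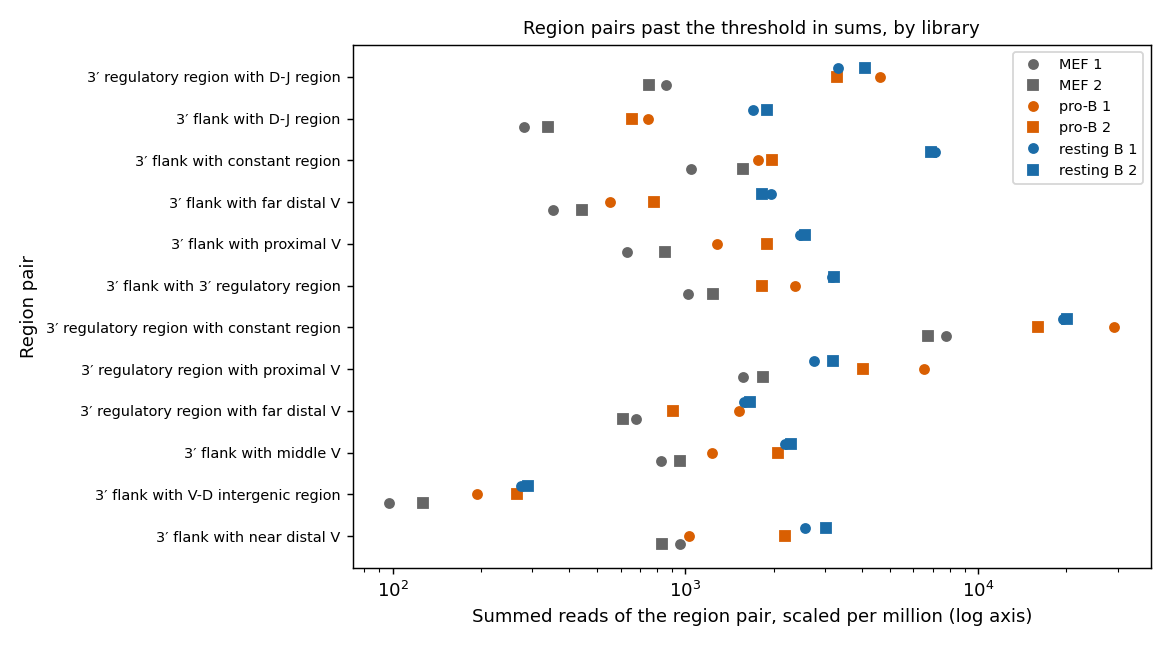
Summed reads (scaled CPM, log axis) of the 12 region pairs past the threshold, with 1 point per library coloured by cell type. In every row both MEF points lie to the left of the 4 B-lineage points, by the widest gap for the 3′ regulatory region with the D-J region (856 and 751 against at least 3282).

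The 3′ flank (114339456 to 114420752, 16 fragments) rose with the D-J region by 1.85 ± 0.25 in sums. The levels were 282 and 339 CPM in MEF, 744 and 655 in pro-B and 1699 and 1899 in resting B libraries, so the 3 cell types did not overlap. It rose by 1.47 ± 0.24 with the constant region, 1.50 ± 0.26 with the far distal V, 1.44 ± 0.27 with the proximal V, 1.20 ± 0.23 with the 3′ regulatory region, 1.11 ± 0.27 with the middle V, 1.18 ± 0.29 with the V-D region and 1.25 ± 0.32 with the near distal V fragments. Resting B cells exceeded pro-B cells in sums of the 3′ flank with the D-J region (1.36 ± 0.27), the constant region (1.90 ± 0.27) and the far distal V fragments (1.50 ± 0.29; edgeR quasi-likelihood, adjusted p = 0.00679, 0.00318 and 0.00679). The difference of the flank was therefore unequal between the stages. With each primer pair counted once, its level with the constant region was 2.31 and 1.93 in pro-B cells, within the MEF range of 1.87 to 2.40, against 4.65 and 4.59 in resting B cells. Pro-B cells overlapped MEF likewise with the far distal V fragments (0.94 and 0.83 against 0.68 and 0.87). With the 3′ regulatory region they also overlapped (3.75 and 3.39 against 3.35 and 3.45).

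Within the 3′ regulatory region 4 neighbouring fragments in the 5′ part held most of the shared contacts that reached constant or D-J partners. REV 27 (114459545 to 114465908) lay above MEF in all 4 libraries with 7 of 12 constant and 5 of 7 D-J fragments, and the median log2 differences were 1.49 and 3.18. FOR 28 did so with 7 of 13 constant and 3 of 6 D-J fragments, REV 29 with 6 of 12 and 3 of 7, and FOR 31 with 8 of 13 and 3 of 6. At the other end of the region REV 22 had 2 of 12 and 1 of 7, and FOR 23 had 2 of 12 and 1 of 6. REV 24 and FOR 25, which lie between these and REV 27, had 0 such contacts with the constant and D-J regions. In the V array REV 27 lay above MEF with 6 of 9 proximal, 8 of 25 middle, 12 of 21 near distal and 4 of 14 far distal fragments. FOR 28 had 1 of 10, 1 of 25, 2 of 21 and 2 of 14.

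Along the constant region the difference of REV 27 was largest toward the J side, with exceptions. With FOR 34, its nearest constant partner at 29.8 kb, resting B cells had 1061 and 1053 CPM, but pro-B cells (106 and 146) overlapped MEF (166 and 138). With FOR 36 the difference was -0.10 ± 0.40 and with FOR 58 0.93 ± 0.41, and in both the libraries overlapped. From FOR 68 to FOR 82, at 178 to 205 kb, all 7 partners lay above MEF in all 4 libraries, with log2 differences of 2.84 to 4.26. At FOR 84, 209 kb away, pro-B cells had 602 and 316 CPM, while resting B cells (63.6 and 71.8) lay within the MEF range of 55.7 to 81.3. At FOR 86 the difference was 0.63 ± 0.37. At FOR 91, 226 kb away, all 4 B-lineage libraries again lay above MEF, with 311 and 157 CPM in pro-B, 66.3 and 76.7 in resting B and 62.3 and 61.3 in MEF libraries (1.07 ± 0.38). The level with FOR 84 differed between the stages (edgeR quasi-likelihood, adjusted p = 0.0275). The change from FOR 82 to FOR 84 was not tested, and by value pro-B cells did not drop, with 419 and 248 CPM at FOR 82. Reads of REV 27 to the gene desert, a measure of how well the fragment was recovered, were 394 and 5284 in pro-B, 2933 and 4526 in resting B and 1021 and 780 in MEF libraries, a difference of 0.67 ± 0.38. Those counts are not scaled for depth, whereas the difference is. All reads between Igh and the desert numbered 122047 and 611524 in pro-B libraries. The numbers were 622636 and 702196 in resting B and 703564 and 462793 in MEF libraries. The part of recovery in the results for REV 27 was not tested.

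**Figure D3:**
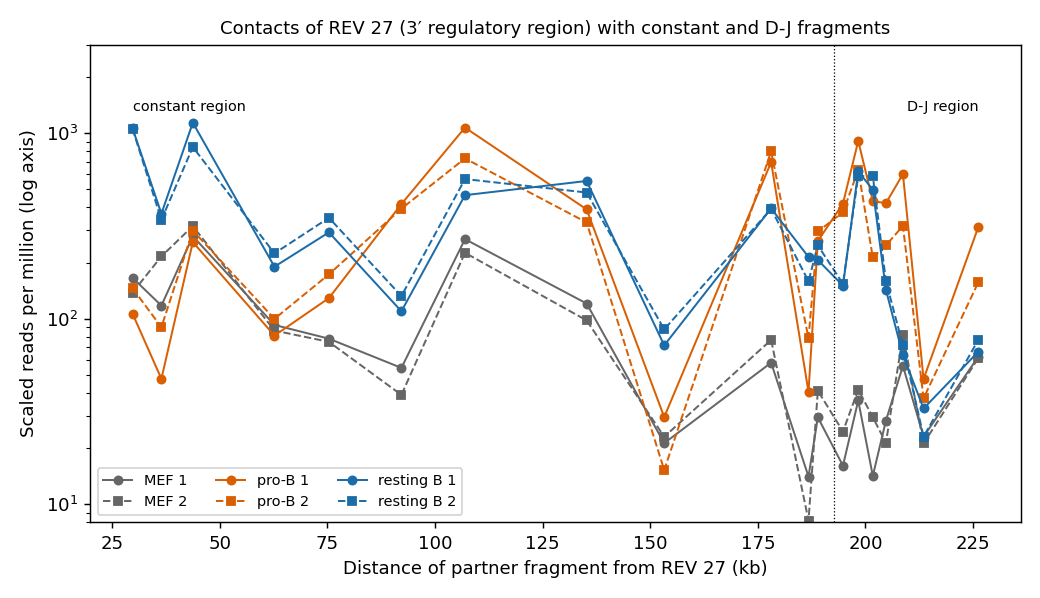
Scaled CPM (log axis) between REV 27 of the 3′ regulatory region and each constant and D-J fragment, by distance from REV 27 (kb), with 1 line per library. From 178 to 205 kb the 4 B-lineage lines run above both MEF lines, and at 209 kb the resting B lines return to the MEF level.

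The primer pairs of lowest p on one side of MEF are part of the same reads as the sums above, so they add no separate support. None passed edgeR's threshold, so they are given as values, with adjusted p of 0.149 to 0.321. FOR 78 (114659959 to 114662158), which lies on the Ighm side of the intronic enhancer fragment, with REV 27, 198 kb away, had 15907 and 14925 reads in the pro-B, 14832 and 12699 in the resting B and 620 and 1137 in the MEF libraries. In scaled levels these were 908, 634, 622 and 588 CPM against 36.2 and 41.5, a log2 difference of 4.13 ± 0.39. All 4 B-lineage libraries lay together, more than an order of magnitude above MEF.

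FOR 28 (114465909 to 114474052) with REV 75 (114652514 to 114656272), the constant region's last fragment on the J side, gave 566 and 529 CPM in pro-B, 330 and 359 in resting B and 65.9 and 42.9 in MEF libraries, a difference of 3.00 ± 0.37. FOR 31 (114477117 to 114480873) with the enhancer fragment REV 81 gave 179 and 183 CPM in pro-B, 502 and 853 in resting B and 47.6 and 41.0 in MEF libraries (2.98 ± 0.39). There the stages differed by 1.91 ± 0.40 (edgeR quasi-likelihood, adjusted p = 0.037). Inside the constant region FOR 74 with REV 44, 108 kb apart, had a difference of 2.55 ± 0.38, and FOR 68 with REV 33, 152 kb apart, of 2.17 ± 0.35. Each of these 5 pairs passed DESeq2's Wald test.

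**Figure D4:**
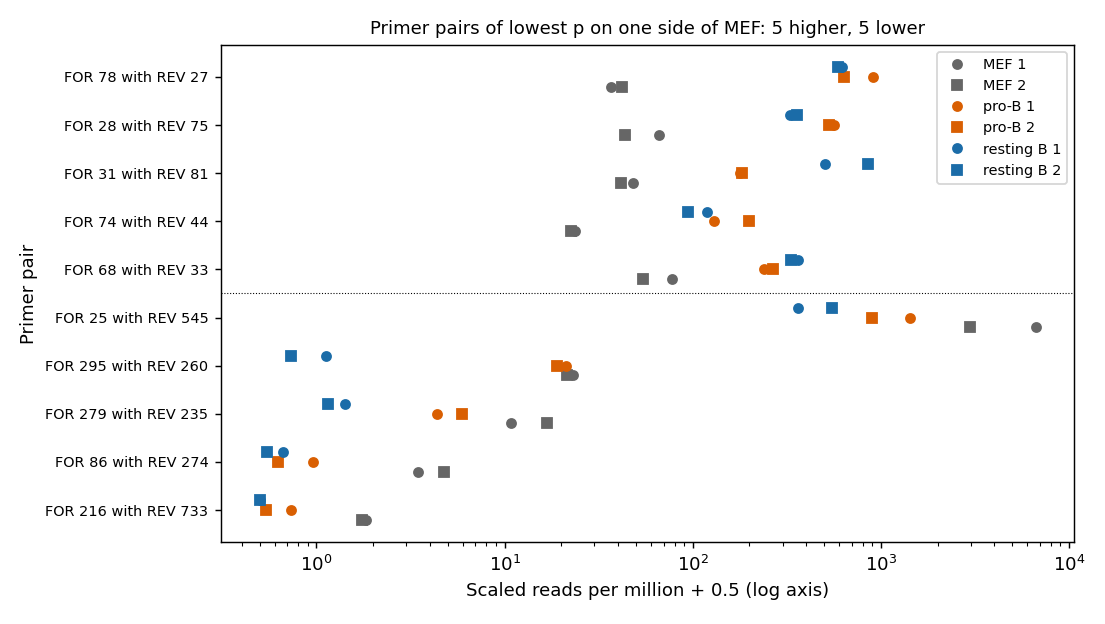
Scaled CPM plus 0.5 (log axis) of the 5 primer pairs of lowest p above MEF and the 5 below, over 100 kb apart, with 1 point per library. In the upper rows the B-lineage points lie to the right of both MEF points, and in FOR 295 with REV 260 the pro-B points nearly touch the MEF points while the resting B points lie far to the left.

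The intronic enhancer, a B-lineage enhancer that acts on V(D)J recombination and on Ighm, was covered by REV 81 (114664824 to 114667095). Of its 111 tested partners 23 (20.7%) lay above MEF in all 4 libraries and 2 below, against 6.58% and 7.22% of all Igh pairs. Its median log2 difference was 0.81, but the median was -0.07 in pro-B cells and 1.65 in resting B cells. With FOR 415 (115816276 to 115822016), a near distal V fragment 1153 kb away, it gave 19.3 and 31.3 CPM in pro-B, 319 and 332 in resting B and 11.0 and 13.7 in MEF libraries. With FOR 34 at the 3′ end of the constant region it gave 24.0 and 39.7, 263 and 312, and 22.1 and 21.6 CPM in the same order. Pro-B minus MEF was 1.04 ± 0.39 and 0.54 ± 0.39, so resting B cells were far higher in both. The stages differed in both pairs (edgeR quasi-likelihood, adjusted p = 0.0195 and 0.0213).

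At the far 3′ end of the regulatory region, which holds CTCF sites, REV 22 (114434637 to 114441221) lay above MEF with 25 of 108 partners (23.1%) and below with 1, with a median of 0.69. These included 4 of 9 proximal V, 7 of 21 near distal V and 4 of 14 far distal V fragments. With FOR 126 (114823610 to 114829182), a proximal V fragment 388 kb away, it gave 477 and 531 CPM in pro-B, 216 and 239 in resting B and 107 and 149 in MEF libraries. FOR 23, next to it, had 7 of 105 above and 2 below, with medians of 1.61 in pro-B and -1.31 in resting B cells. REV 24 had 4 of 100 above and 2 below and a median of -0.29, which turned to 0.071 under gene desert scaling. FOR 25 had 10 of 102 above and 2 below, with a median of 0.62. The fragments of this end thus differed among themselves, and REV 22 had the largest share.

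Intergenic control region 1, a CTCF-bound insulator between the V array and the D segments that limits recombination of proximal V segments, was covered by REV 94 (114722112 to 114723013). Of its 106 partners 10 lay above MEF (9.43%) and 9 below (8.49%), shares near those of all Igh pairs. The median was 0.57 in pro-B cells and -1.77 in resting B cells. With FOR 78 on the Ighm side of the intronic enhancer, 61.5 kb away, it gave 28.1 and 45.2 CPM in pro-B, 32.2 and 30.9 in resting B and 10.3 and 12.4 in MEF libraries, with a difference of 1.58 ± 0.41 that did not pass. In that contact the stages overlapped.

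Fragments were also compared by their mean log2(CPM + 0.5) over all Igh partners over 50 kb away. Of 225 fragments 16 rose (7.11%) and 5 fell (2.22%; limma, Benjamini-Hochberg). Of those that rose 14 belonged to the 16 fragments of the 3′ flank and 2 to the constant region, and 6 of the 16 had all 4 B-lineage libraries above both MEF libraries. FOR 3 (114341252 to 114353715) had levels of 2.62 and 2.54 in pro-B, 3.53 and 3.63 in resting B and 1.76 and 2.07 in MEF libraries, a difference of 1.17 ± 0.14 (adjusted p = 0.0199). FOR 14 (114394005 to 114395286) had 1.19 and 0.60, 2.34 and 2.43, and 0.43 and 0.41 in the same order, a difference of 1.22 ± 0.18. In both fragments resting B cells lay above pro-B cells, and pro-B cells above MEF. FOR 11, REV 12 and FOR 18 rose by 0.92 ± 0.13, 0.95 ± 0.16 and 1.00 ± 0.17. In FOR 11 and REV 12 pro-B cells lay close to MEF. FOR 11 had 1.16 and 0.94 in pro-B, 2.46 and 2.56 in resting B and 0.81 and 0.91 in MEF libraries, and pro-B minus MEF was 0.19 ± 0.16. REV 12 had 1.64 and 1.69, 3.10 and 2.99, and 1.19 and 1.62, and pro-B minus MEF was 0.26 ± 0.18. The median difference of the flank's 16 fragments in reads to the gene desert was 0.02, with a range of -0.80 to 0.67, and 0 of them passed. By stage that median was -0.24 in pro-B and 0.26 in resting B cells. The part of recovery in the flank's results was not tested. The calls of all 8 fragments named here were lost when any 1 MEF or resting B library was left out, and under total-read or gene desert scaling.

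**Figure D5:**
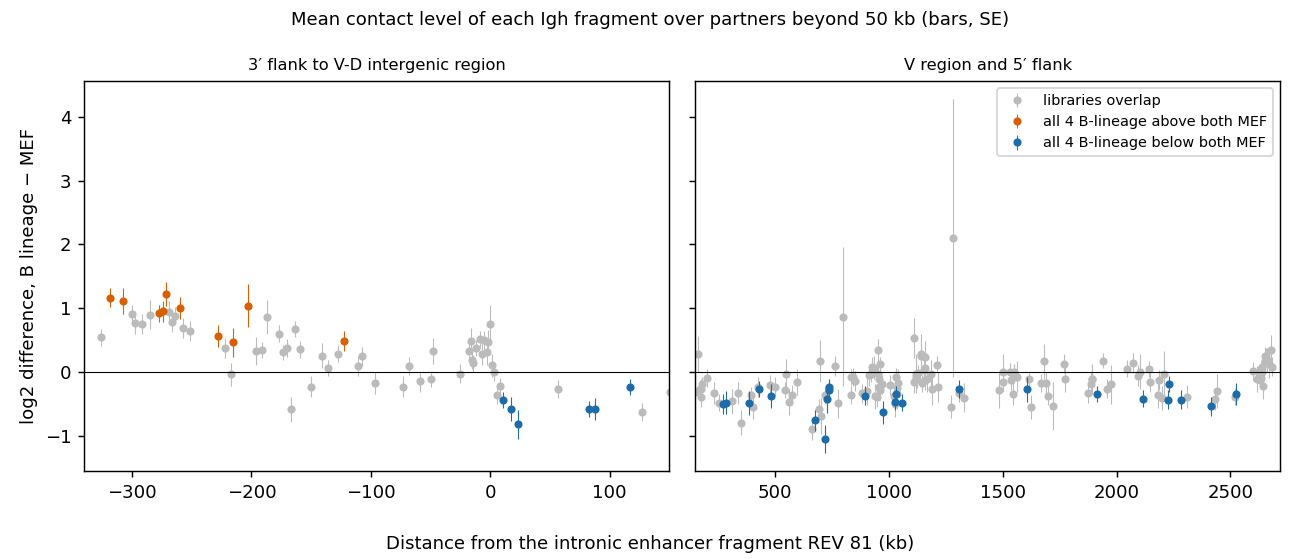
Log2 difference (B lineage minus MEF, bars SE) of each of the 225 fragments in mean contact level over partners beyond 50 kb, by distance from the intronic enhancer fragment REV 81 (kb, 3′ flank on the left). Orange points, with all 4 B-lineage libraries above both MEF libraries, all lie left of the enhancer, and blue points, with all 4 below, all lie right of it.

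Single V fragments differed in how many shared contacts they had with the 3′ end of the locus, that is, the 3′ regulatory region and the 3′ flank, with a median of 2 above MEF. The next fragments are described because they had the most, so they were chosen by these values. REV 374 in the middle V array had 7, with 2 of 4 partners in the 3′ regulatory region and 5 of 8 in the flank. FOR 126 in the proximal array had 2 of 4 and 4 of 8, and FOR 671 in the far distal array 0 of 4 and 6 of 8. FOR 126 with REV 27 gave 2116 and 1241 CPM in pro-B, 835 and 1032 in resting B and 415 and 472 in MEF libraries. It held 30.5% of all reads between the 3′ regulatory region and the proximal V array. FOR 671 with REV 15, 2373 kb apart, gave 41.1 and 68.7, 120 and 124, and 7.48 and 25.0 CPM in the same order.

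Below MEF, the shared contacts joined V fragments to each other and to the D-J and V-D regions. In mean logs 14 region pairs were higher (25.5%) and 15 lower (27.3%; limma, adjusted over 55), with 10 and 8 of them having all 4 libraries on one side. The V-D intergenic region, which separates the D segments from the V array, fell with the far distal (-0.69 ± 0.10), middle (-0.63 ± 0.11) and near distal V fragments (-0.60 ± 0.10), with the D-J region (-0.71 ± 0.16) and with the constant region (-0.49 ± 0.16). The proximal V fragments fell with the far distal (-0.68 ± 0.12) and near distal V fragments (-0.49 ± 0.11) and with the D-J region (-0.53 ± 0.19). These 8 all had the 4 B-lineage libraries below both MEF libraries in mean logs, which count every primer pair once. In summed reads none of the 8 passed (edgeR quasi-likelihood), and in each the libraries overlapped. The sum of the D-J region with the proximal V fragments was 2086 and 2181 CPM in pro-B, 2774 and 3246 in resting B and 2022 and 2243 in MEF libraries, a difference of 0.25 ± 0.20 opposite in sign to its mean log. For the constant with the V-D region it was -0.10 ± 0.25, with resting B cells (4090 and 4289 CPM) above MEF (2597 and 2953). For the D-J with the V-D region it was -0.72 ± 0.24 (adjusted p = 0.0587).

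The D-J and V-D regions together had levels of 3.37 and 2.85 in pro-B, 3.06 and 3.21 in resting B and 3.89 and 3.79 in MEF libraries. Here the stages overlapped, and their difference was 0.03 (95% interval -0.41 to 0.46). V-D fragments with the far distal V array had 1.66 and 1.58 in pro-B, 0.85 in both resting B and 1.96 and 1.90 in MEF libraries, so resting B cells lay well below pro-B cells. The 8 lower calls were lost under total-read scaling and under gene desert scaling, which kept their sign. Gene desert pairs over 50 kb apart had all 4 libraries below MEF in 46 of 143 (32.2%), against 195 of 1709 pairs of V fragments 50 to 500 kb apart (11.4%). Reads of the V-D fragments to the desert had a median difference of -0.54 (-0.74 in pro-B and -0.25 in resting B cells). Those of the D-J fragments had one of -0.17 (-0.44 in pro-B and 0.25 in resting B cells). The part of either in these lower contacts was not tested.

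Among single fragments FOR 279 (115382611 to 115385319) and FOR 266 (115341931 to 115344599) in the middle V array fell by 1.06 ± 0.22 and 0.76 ± 0.17, and FOR 103 in the V-D region by 0.58 ± 0.12 (limma, adjusted p = 0.0364, 0.0383 and 0.0364). The levels of FOR 279 were 0.37 and 0.09 in pro-B, 0.36 and 0.19 in resting B and 0.96 and 1.67 in MEF libraries. Resting B minus pro-B cells was 0.05 ± 0.25 for FOR 279 and 0.04 ± 0.19 for FOR 266. Reads of FOR 266 to the desert differed by -1.63 and those of FOR 279 by 0.12, neither past the threshold.

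The 5 primer pairs of lowest p below MEF are again values only. FOR 25 in the 3′ regulatory region with REV 545 (116342486 to 116353413) in the near distal V array, 1898 kb apart, had 25144 and 21126 reads in pro-B, 8673 and 11915 in resting B and 113701 and 81320 in MEF libraries. The log2 difference was -2.72 ± 0.44. It was the one of the 5 that joined the constant side's 3′ end to a V fragment. FOR 295 with REV 260, both in the middle V array, had 362 and 438 reads in pro-B, 15 and 5 in resting B and 387 and 571 in MEF libraries. Pro-B cells thus lay just below MEF, and the stages differed by -5.49 ± 0.71 (edgeR quasi-likelihood, adjusted p = 0.0204). FOR 279 with REV 235 had 68 and 128, 22 and 14, and 177 and 449 reads in the same order. FOR 86 with REV 274 had 8 and 3, 4 and 1, and 51 and 117 reads, and FOR 216 with REV 733 had 4 and 1, 0 and 0, and 23 and 34. At such counts the size of a difference is poorly fixed.

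As a share of Igh reads, contacts within 50 kb made up 77.4% and 73.3% in pro-B, 73.8% and 69.7% in resting B and 82.4% and 78.3% in MEF libraries. All 4 B-lineage libraries lay below both MEF libraries, with means of 73.5% ± 3.1 (SD, n = 4) and 80.4% ± 2.9 (SD, n = 2). The two-sided exact permutation p was 0.0667, the smallest that 4 against 2 libraries can give. Of the 4 separation classes compared, none can pass 0.05 in this design. From 50 to 500 kb the share was 13.3% ± 0.85 against 10.9% ± 2.1 (exact permutation p = 0.133). Over 1 Mb it was 3.67% and 7.72% in pro-B, 9.40% and 14.4% in resting B and 4.86% and 5.30% in MEF libraries (exact permutation p = 0.333), and pro-B replicate 1 lay below both MEF libraries. The pair of FOR 31 with REV 545 held 3.12% and 8.02% of all Igh reads in the resting B libraries and at most 0.814% in the others. Without it, an alternative chosen after the data were seen, the share over 1 Mb was 3.56% and 6.96% in pro-B, 6.49% and 6.88% in resting B and 4.45% and 5.11% in MEF libraries (exact permutation p = 0.4). The share within 50 kb was then 77.5% and 73.9%, 76.1% and 75.8%, and 82.8% and 78.5% in the same order.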

How the data were processed

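The authors deposited raw read counts for each primer pair, 1 file per library, listing only pairs with reads. The read length was 42, per the file headers. Unlisted pairs were set to 0. Novoalign and the genome build mm9 are named per the submitters' processing notes, and no version of Novoalign is stated there. The headers record no molecular identifiers, so duplicates are counted. The intervals given for stage differences rest on limma's SE, which is taken from the spread between replicate libraries and not from counting error alone. A constant second value in the deposited files was not used. The count of 1 read is the unit throughout, and a pair at 0 reads could hold up to 3.

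Primer pairs reaching 10 reads in 2 or more libraries were scaled by TMM and tested with edgeR 4.0.16 (R 4.3.3) by the quasi-likelihood method. All 6 libraries entered with cell type as sole factor, and the contrast was the mean of both B-lineage stages minus MEF. SE is the log2 difference over the square root of F. Reads summed over 55 region pairs were tested likewise with the same scaling. Mean log2(CPM + 0.5) of region pairs and of fragments was tested with limma 3.58.1. P-values were adjusted by Benjamini-Hochberg over all tested Igh pairs, gene desert pairs, region pairs or fragments. Shares were compared by exact permutation. Each file is 1 sample, grouped by its title. Replicates were not duplicates, since chi-square over its degrees of freedom was 66.6 to 303 for their counts.

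Primer pairs were named in order of p, over 100 kb apart, with all 4 B-lineage libraries on one side and no fragment repeated, filled to 5 per direction where fewer passed. Named region pairs passed with all 4 libraries on one side, and named fragments were up to 5 per direction. Regions, landmarks, lists and members were chosen with earlier results of these data known. Scripts were tested on simulated data. Alternatives were other scalings, filters, pseudocounts, 2 groups only, a replicate block, a distance correction, DESeq2 1.42.0, and leaving out libraries, fragments or the most read primer pair. No mm9 genome was used, so no sequence is given.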

Additional observations from a re-analysis of the deposited data

Results flagged for a closer look

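The stages differed from each other in several contacts that both shared against MEF (resting B minus pro-B, log2). In sums of the 3′ flank they were 1.36 with D-J, 1.90 with constant and 1.50 with far distal V fragments, and -0.83 for the 3′ regulatory region with the proximal V fragments, each past the threshold (edgeR quasi-likelihood, Benjamini-Hochberg). Among the primer pairs described, FOR 31 with REV 81 differed by 1.91 and FOR 295 with REV 260 by -5.49. Among fragments the differences were 1.00 for FOR 3, 1.46 for FOR 11, 1.49 for FOR 14, 1.38 for REV 12, 1.02 for FOR 18 and 0.42 for FOR 103 (limma, Benjamini-Hochberg).

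In 2 sums 1 of the 4 B-lineage libraries lay far from the other 3. Pro-B replicate 2 was low for the 3′ regulatory region with the far distal V fragments, at 908 CPM against 1517 to 1657, a gap of 0.854 of the 4 libraries' range on the log2 scale. Pro-B replicate 1 was low for the 3′ flank with the middle V fragments, at 1228 CPM against 2077 to 2301, a gap of 0.837 of that range. Chance sets about 1 in 20 groups apart in this way where all 4 values come from 1 population. These 4 libraries came from 2 cell types, so that rate need not hold here.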

How the results depend on the processing

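Directions of the named region pairs, fragments and primer pairs held under all alternatives run. The rise of the 3′ regulatory region with the D-J region as drawn passed in sums under each, and the cause of the changes below was not tested. Leaving out 1 library gave 0 to 977 higher and 0 to 2396 lower Igh pairs past the threshold, 876 to 1781 and 1074 to 2017 on one side, 1 to 23 higher and 0 to 7 lower region sums, 11 to 16 and 3 to 24 mean logs, 0 to 47 and 0 to 109 fragments, and 0 to 6 and 0 to 104 desert pairs. Share differences ranged from -8.89 to -4.76 points within 50 kb, 0.936 to 3.90 at 50 to 500 kb, 0.281 to 1.07 at 500 kb to 1 Mb and 1.85 to 5.41 beyond.

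Total-read scaling gave 2 higher and 2 lower Igh pairs, 3 lower region sums, 1 lower mean log, and 1 higher and 0 lower fragments. Gene desert scaling gave 8 higher and 3 lower Igh pairs, 2 higher and 2 lower desert pairs, 385 pairs below, 3 higher and 1 lower sums, 0 lower mean logs, 1 higher and 0 lower fragments, and medians of 1.08 for FOR 25 and 0.071 for REV 24. DESeq2's Wald test called 280 and 70 Igh pairs. With 2 groups only, 1 sum, 0 mean logs and 0 fragments passed. Fragments numbered 0 higher and 0 lower with a pseudocount of 0.1, 32 higher with 5, and 9 lower with at least 50 reads. Lower sums numbered 1 with the distance trend removed, 1 without the top primer pair, and, chosen after seeing the data, 1 without REV 27 and 2 without REV 545.

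The replicate number as a block left 1 lower fragment and gave 2 lower sums. Correlations of same-numbered deviations were -0.03, 0.00229 and 0.08. With 1 replicate difference per cell type, over primer pairs that are not independent, they cannot show whether replicate numbers paired the samples. Few reads limit pairs near 0, and 2 libraries per cell type limit all tests.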
